A study of Mus musculus with 6 samples.

Results

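Sidt1, Tdrp, Bicdl1 and Nsg2 are 4 protein-coding genes, of 55951 genes in the deposited expression table, that have been little studied in lymphocytes. They were picked because their levels were much lower in S100A4-positive than in S100A4-negative libraries, so the size of that difference is given here as a description, with no test. Each symbol had a single row in the table. RNA was sequenced from splenic CD8+ effector-memory T cells of C57BL/6 mice with ovalbumin-induced asthma, in which a S100A4-EGFP reporter marks cells that express the calcium-binding protein S100A4. Sorted cells were CD3+, CD8+, CD4-, CD44+ and CD62L-, and were either EGFP-positive (S100A4-positive, 3 libraries) or EGFP-negative (S100A4-negative, 3 libraries). All mice carried the reporter, had the same asthma model and were otherwise untreated. The labels give neither age nor sex, nor whether the 3 samples of a group came from separate or pooled animals, so error values and p-values cover the spread of these 6 samples and nothing wider.

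Sidt1 encodes a multi-pass membrane protein named after SID-1 of the nematode Caenorhabditis elegans, a channel through which double-stranded RNA enters cells. Bicdl1 encodes a coiled-coil cargo adaptor of the Bicaudal-D family, which links Rab6-bearing vesicles to the motor dynein and its cofactor dynactin, and which is best known from rodent neurons. Nsg2 encodes a small membrane protein of endosomes and Golgi that is abundant in neurons, where its relative Nsg1 recycles receptors through endosomes. Tdrp is named for its expression in the testis.

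The genes lie on 4 different chromosomes of the mouse build GRCm38 (annotation GENCODE M21). Sidt1 (ENSMUSG00000022696) is at chromosome 16, 44240180 to 44333196, on the minus strand. Tdrp (ENSMUSG00000050052) is at chromosome 8, 13952008 to 13975032, minus strand. Bicdl1 (ENSMUSG00000041609) is at chromosome 5, 115648175 to 115731621, minus strand. Nsg2 (ENSMUSG00000020297) is at chromosome 11, 32000463 to 32059202, plus strand. Exons of Tdrp, Bicdl1 and Nsg2 overlapped no other gene, while 8.2% of the exon bases of Sidt1 also belong to Gm26732 on the opposite strand. The strand handling of the counting is not given in the sources used here, so reads in that stretch cannot be assigned to either gene with certainty.

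Sequence around the RefSeq start was available for Sidt1 and Nsg2, of which the bases below are shown because both windows held the E-box CAGGTG. The sequences are from RefSeq on GRCm38.p6, written 5′ to 3′ on the strand of the gene, with CAGGTG or its reverse complement CACCTG in capitals. The Nsg2 stretch is chr11:32000169-32000418, plus strand, the 250 bases before the RefSeq start. The Sidt1 stretch is chr16:44332956-44332985, minus strand, 30 bases around its match. It lies before the RefSeq start but inside the gene in GENCODE M21, in a 5′ untranslated exon of annotated transcripts, so it is upstream sequence by RefSeq and transcribed sequence by GENCODE.
Nsg2: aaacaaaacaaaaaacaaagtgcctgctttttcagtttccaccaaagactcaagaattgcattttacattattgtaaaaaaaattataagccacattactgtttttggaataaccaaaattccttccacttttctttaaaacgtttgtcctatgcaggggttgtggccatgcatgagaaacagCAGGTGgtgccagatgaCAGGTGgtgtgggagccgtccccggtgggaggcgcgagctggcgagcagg
Sidt1: tcgtttgacgtgCACCTGatttcctccttg

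Nsg2 had 2 matches, beginning 67 and 50 bases before the start, and Sidt1 had 1, at 135 bases before its RefSeq start. E-boxes of these letters were present on either strand in 17.2% of all 32851 promoter windows of that length. The other motifs searched in the same 250 bases, on both strands, were CTTTGA for TCF and LEF factors (in 13.8% of all windows), TGTGGT for RUNX (14.05%), GGAAGT for ETS (19.7%) and AGATAA for GATA (9.99%). None of these other letters occurred in the Sidt1 window or in either Nsg2 window. The second Nsg2 window, whose start lies further downstream, also lacked CAGGTG. These matches describe letters, not binding.

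Libraries of the groups differed widely, and some went against their gate. Between 14925260 and 18660188 reads per library could be recovered. S100a4 was at 1.27, 4.02 and 1.52 FPKM in S100A4-positive libraries, against 0 (as listed), 0.405 and 0.129 FPKM in S100A4-negative libraries. Markers of monocytes and macrophages summed to 10963 to 11343 FPKM in S100A4-positive libraries and 707 to 1020 FPKM in S100A4-negative libraries, although the gate required CD3 and CD8. In S100A4-negative replicate 2, Cd4 was at 337 FPKM and Cd8a at 85.2 FPKM, although the gate selected CD4- CD8+ cells. In S100A4-negative replicate 1 these were at 67.2 and 187 FPKM. Cd8a was at 13.6, 22.4 and 31.9 FPKM in S100A4-positive libraries, below Cd4 in each (42.5, 52.4 and 66.6 FPKM). The log2 differences of the 4 genes, and of their ratios to Cd3e and Ighm, are given without S100A4-negative replicate 2 as well. Nearest profiles and most list counts are given only with it. Levels below are FPKM as deposited, which are per length and can be compared between genes. Differences are S100A4-positive minus S100A4-negative group means of log2(FPKM + 1), a scale that understates the change of low genes.

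Sidt1 was at 9.24, 7.58 and 10.7 FPKM in S100A4-positive replicates 1, 2 and 3, against 142, 67.8 and 82.9 FPKM in S100A4-negative replicates 1, 2 and 3. Group means were 9.18 ± 1.57 and 97.7 ± 39.4 FPKM (SD, n = 3 each), 10.6-fold lower in S100A4-positive libraries, and the log2 difference was -3.22 (SE 0.27). The groups did not overlap, the S100A4-positive libraries lay close together, and S100A4-negative replicate 1 was 2.1 times as high as replicate 2. In bulk samples, fewer cells that express a gene and less of its RNA per cell cannot be told apart.

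Tdrp, the lowest of the 4 in S100A4-positive libraries, had 3.45, 4.60 and 4.39 FPKM there, against 70.4, 28.1 and 35.7 FPKM in S100A4-negative libraries. Its means were 4.15 ± 0.612 and 44.7 ± 22.6 FPKM (SD, n = 3 each), 10.8-fold lower in S100A4-positive libraries, with a log2 difference of -3.05 (SE 0.32). The order of the S100A4-negative libraries was that of Sidt1, with replicate 1 highest and replicate 2 lowest, and the highest was 2.51 times the lowest. The S100A4-positive values rested on 63, 74 and 82 reads, which gives a counting error of 11.0% to 12.6%. The S100A4-negative values rested on 1288, 537 and 717 reads, with counting errors of 2.79% to 4.32%, so the spread among them is larger than counting gives.

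Bicdl1 was at 9.24, 10.4 and 10.6 FPKM in S100A4-positive libraries, against 118, 82.5 and 64.5 FPKM in S100A4-negative libraries. The S100A4-positive libraries agreed within 1.15-fold, the narrowest range of the 4 genes, from 219 to 258 reads each. Its means were 10.1 ± 0.738 and 88.5 ± 27.5 FPKM (SD, n = 3 each), 8.77-fold lower in S100A4-positive libraries, with a log2 difference of -2.97 (SE 0.21). As for Sidt1 and Tdrp, S100A4-negative replicate 1 was highest, but here replicate 3 was lowest.

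Nsg2 had 3.57, 5.42 and 7.09 FPKM in S100A4-positive libraries, against 42.8, 53.9 and 44.1 FPKM in S100A4-negative libraries. It differed from the other 3 genes in where it varied. The S100A4-negative libraries agreed within 1.26-fold, with replicate 2 highest, and the S100A4-positive libraries spread over 1.98-fold, with replicate 3 highest. Its means were 5.36 ± 1.76 and 46.9 ± 6.05 FPKM (SD, n = 3 each), 8.75-fold lower in S100A4-positive libraries, with a log2 difference of -2.94 (SE 0.22).

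**Figure D1:**
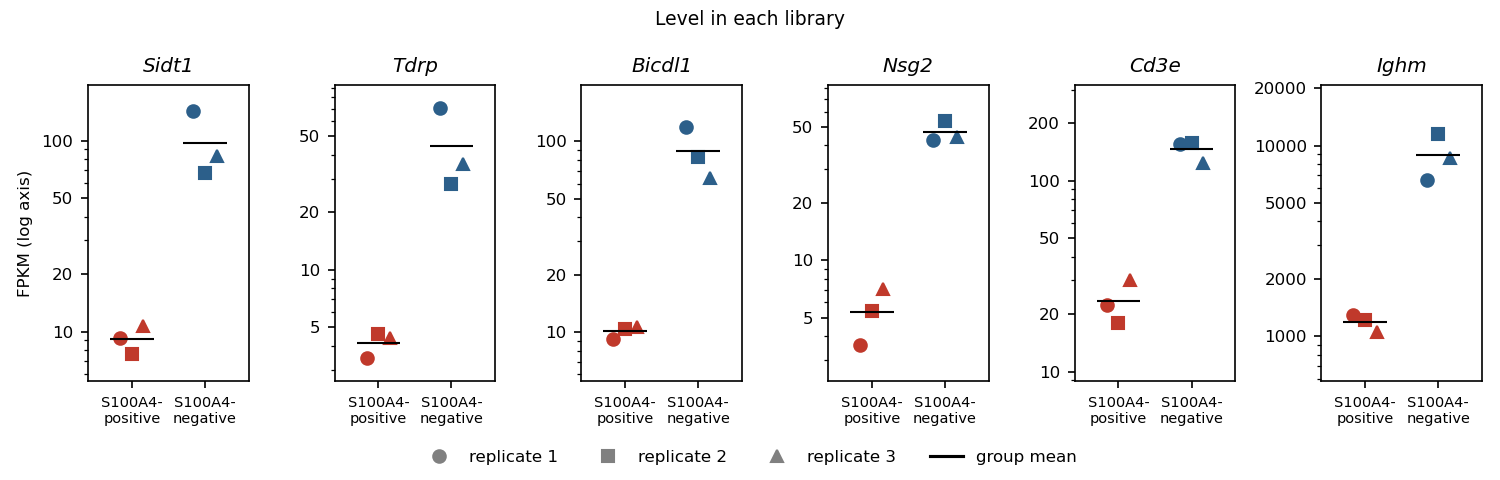
FPKM (log axis, every panel spanning the same ratio) of the 4 genes and of the references Cd3e and Ighm in each library, S100A4-positive left and S100A4-negative right. Symbols mark the replicate and bars the group mean; in each panel the groups do not overlap, and S100A4-negative replicate 1 is highest for Sidt1 (142 FPKM), Tdrp (70.4) and Bicdl1 (118) but not for Nsg2 (42.8).

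By level in S100A4-negative libraries the order of means was Sidt1, Bicdl1, Nsg2 and Tdrp. Sidt1 and Bicdl1, at 97.7 and 88.5 FPKM, did not differ beyond their spread, and neither did Nsg2 and Tdrp, at 46.9 and 44.7 FPKM. In S100A4-positive libraries the order was Bicdl1, Sidt1, Nsg2 and Tdrp. There the ranges of Bicdl1 and Sidt1 overlapped, and those of Nsg2 and Tdrp, while every Sidt1 value lay above every Nsg2 value. Without S100A4-negative replicate 2 the log2 differences were -3.44 for Sidt1, -3.32 for Tdrp, -3.00 for Bicdl1 and -2.84 for Nsg2. The falls ranked 91, 129, 151 and 157 among 13241 tested genes for Sidt1, Tdrp, Bicdl1 and Nsg2, with Ighm at 173 and Cd3e at 245. Of all tested genes, 43.4% were called lower in S100A4-positive libraries. The groups did not overlap for 70.0% of them, and for 49.1% the S100A4-positive libraries were the lower ones. Since the 4 genes were picked on this contrast, their own place among these is no result. The authors' deposited table gives log2 fold changes of -3.03 for Sidt1, -3.04 for Tdrp, -2.75 for Bicdl1 and -2.75 for Nsg2, from mean normalized read counts of 392.2, 86.9, 275 and 168 in the S100A4-positive group, against 3205, 716, 1855 and 1129.8 in the S100A4-negative group. Ptprc, which encodes the pan-leukocyte protein CD45, was at 657 ± 41.2 FPKM in S100A4-positive and 644 ± 52.9 FPKM in S100A4-negative libraries (SD, n = 3 each).

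Set against Cd3e, the CD3 epsilon chain of the T cell receptor complex, the differences were much smaller. Cd3e itself was at 22.4, 18.0 and 30.2 FPKM in S100A4-positive libraries, against 156, 158 and 124 FPKM in S100A4-negative libraries, 6.21-fold lower. Sidt1 was at 41.3%, 42.2% and 35.5% of the Cd3e level in S100A4-positive libraries, against 91.0%, 43.0% and 66.8% in S100A4-negative libraries. These percentages of Sidt1 do not overlap, but the lowest S100A4-negative one, replicate 2, is within 1 point of the highest S100A4-positive one. With the pseudocount, the log2 ratio of Sidt1 to Cd3e averaged -1.25 ± 0.14 in S100A4-positive and -0.64 ± 0.54 in S100A4-negative libraries, and there the groups overlapped.

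Tdrp was at 15.4%, 25.6% and 14.5% of Cd3e in S100A4-positive libraries, against 45.0%, 17.8% and 28.7% in S100A4-negative libraries. Bicdl1 was at 41.3%, 58.1% and 35.05%, against 75.8%, 52.3% and 51.9% in S100A4-negative libraries. Nsg2 was at 15.97%, 30.2% and 23.5%, against 27.4%, 34.2% and 35.5% in S100A4-negative libraries. For these 3 genes the groups overlapped. The log2 ratios to Cd3e differed by -0.61 for Sidt1, -0.44 for Tdrp, -0.36 for Bicdl1 and -0.34 for Nsg2 between group means, with SDs within a group of 0.14 to 0.66. For Tdrp the difference was -0.12 without S100A4-negative replicate 1 and -0.77 without replicate 2, and for Sidt1 it was -0.36 and -0.89 in the same settings. For Bicdl1 it was -0.19 and -0.45, and for Nsg2 -0.45 and -0.30, again in that order.

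Ighm, the heavy chain of IgM made by B cells and plasma cells, was at 1287, 1220.4 and 1052 FPKM in S100A4-positive libraries, against 6612, 11525 and 8658 FPKM in S100A4-negative libraries, 7.53-fold lower. Its order among the S100A4-negative libraries was the reverse of that of Sidt1 and Tdrp in that replicate 1 was lowest and replicate 2 highest. Log2 ratios to Ighm differed between group means by -0.34 for Sidt1, -0.17 for Tdrp, -0.09 for Bicdl1 and -0.07 for Nsg2, smaller than the SD of 0.74 to 1.06 among the S100A4-negative libraries for the first 3 genes and of 0.56 among the S100A4-positive libraries for Nsg2. The groups overlapped for all 4 genes. Ighm itself fell by 2.88 on the log2 scale, the most of the 14 B cell genes listed further below, whose median was -1.33. Ratios to Ighm therefore do not stand for B cell genes as a whole. Without S100A4-positive replicate 1 the difference was 0.03 for Bicdl1 and 0.21 for Nsg2. Without S100A4-negative replicate 1 the differences turned positive, at 0.17, 0.41, 0.34 and 0.07 for Sidt1, Tdrp, Bicdl1 and Nsg2. Leaving out S100A4-negative replicate 2 instead gave -0.76, -0.64, -0.32 and -0.17, in the same order of genes.

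**Figure D2:**
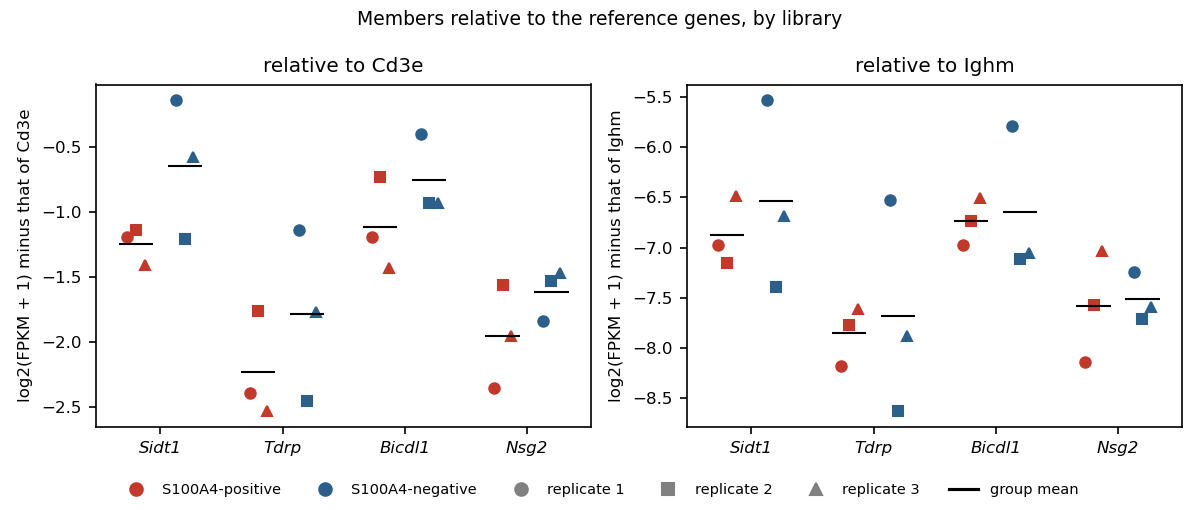
Log2(FPKM + 1) of each gene minus that of Cd3e (left) or Ighm (right) in each library, S100A4-positive in red and left of S100A4-negative in blue, with bars at group means. The groups overlap in all 8 comparisons. In both panels S100A4-negative replicate 1 lies above the other S100A4-negative libraries for Sidt1 (-0.14 to Cd3e), Tdrp and Bicdl1. For Nsg2 it does so only relative to Ighm (-7.24).

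Sidt1 and Tdrp followed each other, and the genes most like them included a CD8 chain and a factor of naive T cells. Likeness was the root-mean-square difference over the 6 libraries between profiles of log2(FPKM + 1), each centred on its own mean, among 11054 tested protein-coding genes; small values mean alike, and since the group difference is part of the profile, genes with a like fall come first. Nearest to Sidt1 were Cd8b1, the beta chain of the CD8 coreceptor (0.21), Tdrp (0.21) and Ms4a4b, a membrane protein of T cells (0.22). Nearest to Tdrp were Lef1, a DNA-binding partner of beta-catenin (0.15), Sidt1 (0.21) and Btbd11 (0.24). The Sidt1 level was 2.68, 1.65 and 2.44 times that of Tdrp in S100A4-positive libraries, against 2.02, 2.42 and 2.32 times in S100A4-negative libraries.

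Cd8b1 had 11.9, 12.1 and 20.8 FPKM in S100A4-positive libraries, against 186, 92.9 and 146 FPKM in S100A4-negative libraries. Sidt1 was at 77.9%, 62.6% and 51.7% of that level in S100A4-positive libraries, against 76.6%, 73.0% and 56.9% in S100A4-negative libraries, so that the groups overlapped. Relative to Cd8a, the other CD8 chain, Sidt1 was at 68.1%, 33.9% and 33.6% in S100A4-positive libraries, against 75.9%, 79.6% and 59.6% in S100A4-negative libraries. Tdrp was at 25.4%, 20.6% and 13.8% of Cd8a in S100A4-positive libraries, against 37.6%, 32.9% and 25.7% in S100A4-negative libraries. Relative to Cd8a the groups overlapped for Sidt1 but not for Tdrp. Lef1 was at 4.84, 4.78 and 4.65 FPKM in S100A4-positive libraries, against 75.8, 25.9 and 37.3 FPKM in S100A4-negative libraries. Tdrp was at 71.4%, 96.4% and 94.3% of the Lef1 level in S100A4-positive libraries, against 92.9%, 108% and 95.6% in S100A4-negative libraries. It was thus close to Lef1 in 5 libraries and lowest relative to it in S100A4-positive replicate 1. Cd8b1 and Lef1 were found by their likeness in these same libraries, so steady ratios to them follow from that choice.

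Bicdl1 was nearer to Sidt1 and Tdrp than to Nsg2. Among the genes nearest to Bicdl1 were Prkcq, a kinase of T cell receptor signalling (0.21), and Btbd11 (0.22). Its distance was 0.25 to Tdrp and 0.27 to Sidt1, less than the 0.33 to Cd3e and 0.35 to Nsg2. Nearest to Nsg2 were Cd3d, the CD3 delta chain (0.16), Lck, the kinase that starts receptor signalling (0.19), and Lat, the adaptor downstream of it (0.20). Nsg2 was at 18.8%, 18.9% and 18.3% of the Cd3d level in S100A4-positive libraries, against 24.6%, 28.4% and 24.8% in S100A4-negative libraries. Those values vary little within each group, and the S100A4-positive ones lie below all S100A4-negative ones. Both are descriptions, since Cd3d was found by its likeness to Nsg2 in these same libraries and Nsg2 was picked for its fall. From Nsg2, the other 3 genes stood at 0.48 (Sidt1), 0.50 (Tdrp) and 0.35 (Bicdl1), further away than Cd3e at 0.31.

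Among the S100A4-negative libraries, the pattern of Sidt1 and Tdrp was shared with Cd8a, Cd8b1 and Eomes, a T-box factor of cytotoxic cells, and was opposite to that of Cd4. From the S100A4-negative mean, Sidt1 deviated by 0.61, -0.45 and -0.16 log2 units in replicates 1, 2 and 3, and Tdrp by 0.75, -0.54 and -0.21. Cd8b1 deviated by 0.45, -0.55 and 0.10 and Eomes by 0.71, -0.67 and -0.03. Cd4 deviated by -1.01, 1.30 and -0.29, whereas Nsg2 stayed within -0.12 to 0.20. These are 3 libraries, and the likeness is a description. Over whole lists, S100A4-negative replicate 1 was the highest of its group for 11 of 13 tested cytotoxic and natural killer cell genes, 10 of 16 naive T cell genes, 10 of 20 core T cell genes and 0 of 14 B cell genes, against 30.7% of all tested genes. B cell genes were highest in replicate 3 for 13 of 14, against 5927 of all 13241 tested genes, and none of the 4 genes was highest there. Plasma cell genes were highest in replicate 2 for 8 of 9, against 3250 of all 13241 tested genes.

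**Figure D3:**
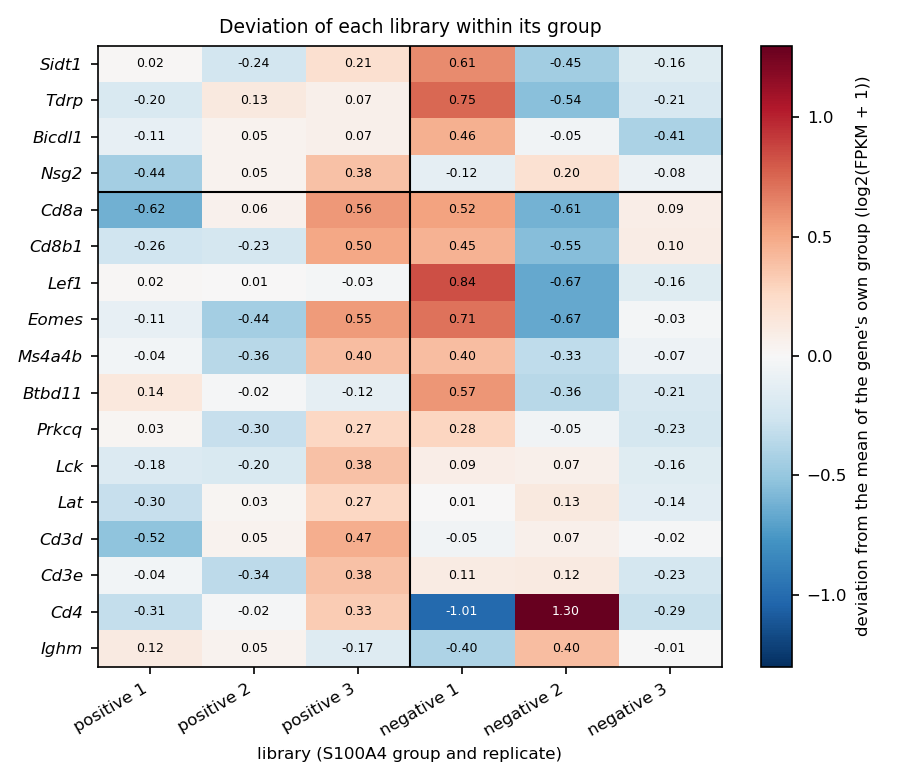
Deviation of each library (columns, S100A4-positive left) from the mean of its own group, in log2(FPKM + 1), for the 4 genes (top) and for genes chosen after their values were seen (below the line). S100A4-negative replicate 1 is high and replicate 2 low for Sidt1, Tdrp, Cd8a, Cd8b1, Lef1 and Eomes, Cd4 runs the other way (-1.01 and 1.30), and Nsg2 varies more among S100A4-positive libraries.

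Whether the contrast touched the relatives of these genes was tested across all genes with limma, with Benjamini-Hochberg adjustment. Among 13241 tested genes 62.3% were called, 19.0% higher and 43.4% lower in S100A4-positive libraries, so a call by itself is common here. The median log2 difference of all tested genes was -0.36, and rescaling by the median of ratios moved it by 0.33. Of 6 paralogues, only Sidt2 and Bicd2 passed the filter of a mean FPKM of at least 1. Sidt2, the lysosomal relative of Sidt1, had 240.2, 175 and 181 FPKM in S100A4-positive libraries, against 528, 359 and 379 FPKM in S100A4-negative libraries. It fell by 1.08 on the log2 scale (SE 0.20, limma adjusted p = 0.00279), and by 0.70 after rescaling (limma adjusted p = 0.0226).

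Sidt2 was thus the more abundant relative in every library, at 199 ± 36.1 FPKM in S100A4-positive and 422 ± 92.6 FPKM in S100A4-negative libraries (SD, n = 3 each). Bicd2, the dynein adaptor related to Bicdl1, was at 13.4 ± 1.39 FPKM in S100A4-positive and 15.7 ± 0.614 FPKM in S100A4-negative libraries, and did not pass (log2 difference -0.22, SE 0.13, limma adjusted p = 0.162). The sign of that difference turned after rescaling, to 0.13. In S100A4-positive libraries Bicd2 was the higher of the pair, and in S100A4-negative libraries Bicdl1 was. Of the relatives below the filter, Nsg1 was at 0.565 ± 0.109 and 0.578 ± 0.0184 FPKM in S100A4-positive and S100A4-negative libraries. Bicdl2 was at 0.989 ± 0.478 and 0.427 ± 0.257 FPKM and Bicd1 at 0.188 ± 0.106 and 0.427 ± 0.0825 FPKM, in the same order of groups. Caly was at 0.0198 ± 0.0343 and 0.0333 ± 0.0576 FPKM (SD, n = 3 each).

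Partners of Bicdl1 in vesicle transport were called in both directions, and most missed the threshold. Of 34 dynein, dynactin, Rab6 and adaptor genes, 4 rose and 9 fell while 21 missed the threshold, so that 38.2% were called beside 62.3% of all tested genes. Their median was -0.09 beside -0.36 for all tested genes. Hook1, another dynein adaptor, had 5.88, 6.20 and 8.76 FPKM in S100A4-positive libraries, against 26.0, 21.6 and 28.2 FPKM in S100A4-negative libraries, and fell by 1.73 (SE 0.18, limma adjusted p = 2.46e-04). Rab6b, a Rab6 form best known from neurons, fell by 1.33 (SE 0.18, limma adjusted p = 7.50e-04) and was low throughout, at 1.57 ± 0.301 FPKM in S100A4-positive libraries and 5.49 ± 0.981 FPKM in S100A4-negative libraries.

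Rab6a, the widely expressed form, was at 24.4 ± 3.60 FPKM in S100A4-positive and 26.0 ± 0.552 FPKM in S100A4-negative libraries and did not pass (log2 difference -0.10, limma adjusted p = 0.529). Dync1h1, the dynein heavy chain, did not pass either (-0.30, limma adjusted p = 0.180). Capza2, an actin-capping subunit shared by dynactin, rose by 1.23 (SE 0.12, limma adjusted p = 1.66e-04), and Kif1c, a kinesin that binds Bicdl1, by 0.95 (SE 0.17, limma adjusted p = 0.00267). Rab6a, Dync1h1 and Kif1c were named after their values were seen. The direction of this list turned with the scaling: after median-of-ratios rescaling 12 rose and 5 fell, with Hook1 and Rab6b still lower.

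Endosomal and clathrin genes, the setting in which the Nsg family works in neurons, were called in both directions, more of them higher. Of 20 genes, 10 rose and 2 fell while 8 missed the threshold, so that 60.0% were called beside 62.3% of all tested genes. By direction, 19.0% of all tested genes were called higher and 43.4% lower. Their median was 0.36 beside -0.36 for all tested genes, and after rescaling 14 rose and 2 fell. Stx7, a syntaxin of late endosomes, rose by 1.51 (SE 0.19, limma adjusted p = 5.39e-04), with 101 ± 11.1 FPKM in S100A4-positive and 35.4 ± 8.47 FPKM in S100A4-negative libraries. Vps26a, a retromer subunit, rose by 1.31 (SE 0.11, limma adjusted p = 1.09e-04). Rab4a, of the fast recycling route, fell by 0.95 (SE 0.21, limma adjusted p = 0.00623), with 4.13 ± 0.804 FPKM in S100A4-positive and 8.95 ± 2.25 FPKM in S100A4-negative libraries. Macrophage markers summed to 10963 to 11343 FPKM in S100A4-positive and 707 to 1020 FPKM in S100A4-negative libraries beside this list, and their part in it was not tested.

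Receptors and sensors of RNA and other nucleic acids, read here because SID-1 proteins carry RNA, were likewise called in both directions, more of them higher. Of 13 genes in the table, 7 rose and 2 fell while 4 missed the threshold, so that 69.2% were called beside 62.3% of all tested genes. Here too the background by direction was 19.0% higher and 43.4% lower. Their median was 0.62, and after rescaling 9 rose and 0 fell, whereas without a filter on low genes 5 rose and 1 fell. Tlr8 had 34.6, 26.1 and 24.0 FPKM in S100A4-positive libraries, against 0.445, 0.743 and 0.236 FPKM in S100A4-negative libraries, and rose by 4.31 (SE 0.20, limma adjusted p = 1.56e-05). Tlr7, which senses single-stranded RNA in endosomes, rose by 3.08 (SE 0.22, limma adjusted p = 6.34e-05). Ifih1, a cytosolic sensor of double-stranded RNA, rose by 1.63 (SE 0.50, limma adjusted p = 0.0243), but it lost its call when S100A4-positive replicate 2 or 3 or S100A4-negative replicate 1 or 3 was left out (limma adjusted p of 0.0633 to 0.0848). Ddx58 (-0.54) and Sting1 (-0.42) were the falls, named after their values were seen. The part of the macrophage markers in this list was not tested either.

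**Figure D4:**
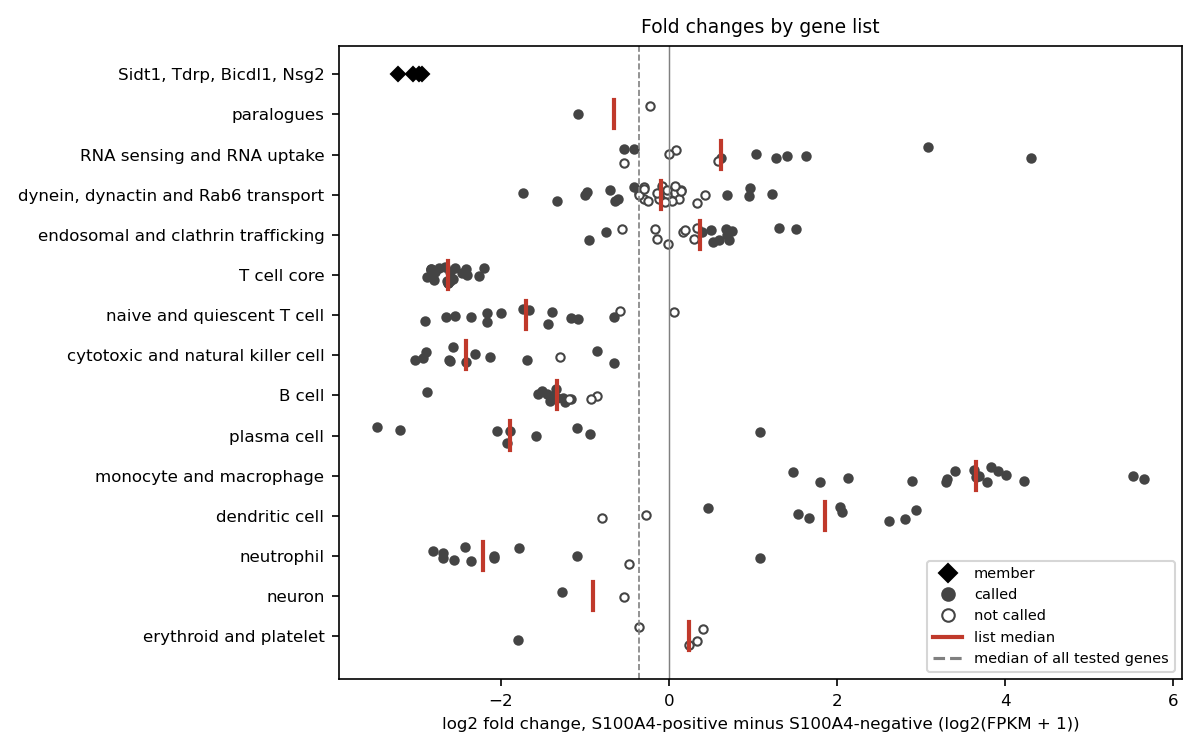
Log2 difference, S100A4-positive minus S100A4-negative, of the 4 genes (diamonds) and of every tested gene of each list (filled, called by limma; open, not called), with red bars at list medians and a dashed line at the median of all tested genes (-0.36). The 4 genes lie from -3.22 to -2.94, a place that follows from picking them for large falls in this contrast. Core T cell genes span -2.88 to -2.20, and the RNA sensing, dynein and endosomal lists have medians between -0.09 and 0.62.

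Marker lists show which other genes moved beside the 4, against a background of 43.4% of all tested genes called lower and 19.0% called higher. All 20 core T cell genes fell, with a median of -2.63, led by Prkcq (-2.88), Themis (-2.83, a regulator of T cell receptor signalling) and Trbc1 (-2.83, a T cell receptor constant region), and their sum was 516 to 702 FPKM in S100A4-positive and 3210 to 3998 FPKM in S100A4-negative libraries. Among 16 naive and quiescent T cell genes, 14 fell, and the list had a median of -1.70, led by Lef1 (-2.90), Dapl1 (-2.65) and Txk, a Tec family kinase (-2.55). Among 13 tested cytotoxic and natural killer cell genes, 12 fell, and the list had a median of -2.41, led by the granule genes Ctsw (-3.02) and Nkg7 (-2.93) and by Eomes (-2.89). Every call in this paragraph is limma's, at an adjusted p under 0.05.

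Markers of cells outside the gate moved in both directions. The counts below stand beside 43.4% of all tested genes called lower and 19.0% called higher. The B cell list had 11 falls among 14 genes (median -1.33), with Ighm at -2.88 and Cd79a at -1.56. Its calls dropped to 7 without S100A4-positive replicate 2, to 6 without S100A4-negative replicate 2 and to 6 after rescaling. The plasma cell list had 8 falls and 1 rise among 9 genes (median -1.89), led by Jchain (-3.47), Derl3 (-3.20) and Tnfrsf17 (-2.04). The neutrophil list had 10 falls and 1 rise among 12 genes (median -2.22), led by the granule genes Ngp (-2.81), Ltf (-2.69) and Camp (-2.69). The 17 tested monocyte and macrophage markers all rose (median 3.66), led by Spic (5.65), Csf1r (5.52) and Cd68 (4.23), and 8 of 10 dendritic cell markers rose (median 1.86), led by Itgax (2.94), Batf3 (2.81) and Flt3 (2.62). The dendritic cell calls dropped to 5 without S100A4-positive replicate 2, to 4 without S100A4-positive replicate 3 and to 5 without S100A4-negative replicate 1. The part of these cells in the falls of Sidt1, Tdrp, Bicdl1 and Nsg2 was not tested.

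Markers of the tissues for which these genes are known were near 0. Of 12 neuronal markers, 3 (Gap43, Gria1 and Gria2) were listed at 0 in every library and the highest value of any was 3.65 FPKM, of Tubb3, a tubulin that is not restricted to neurons. The neuronal list summed to 1.91 to 3.09 FPKM in S100A4-positive and 5.83 to 5.99 FPKM in S100A4-negative libraries, less than Nsg2 alone in the S100A4-negative ones. Map2, a microtubule-associated protein, fell by 1.27 (SE 0.20, limma adjusted p = 0.00151), with 0.414 ± 0.146 FPKM in S100A4-positive and 2.43 ± 0.626 FPKM in S100A4-negative libraries. Without S100A4-positive replicate 3, a call for 2 neuronal genes was made. All 12 testis and germ cell markers were below the filter, 4 of them listed at 0 in every library and none above 0.546 FPKM. Of 5 tested erythroid and platelet markers 1 fell, Itga2b (-1.79, limma adjusted p = 6.36e-04), and 4 did not pass. That is 20% called, beside 62.3% of all tested genes.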

How the data were processed

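Per the submitters' processing notes, HISAT2 2.1.0, Cufflinks and Cuffnorm were used with build mm10, without saying which made which value. The authors deposited FPKM for 55951 genes in 6 libraries. Their deposited comparison table holds, per the file headers, a mean normalized read count for each group (a signal), a log2 fold change and raw and adjusted p-values, and names no test. Columns were matched to samples by title. Reads were recovered from the FPKM and the authors' group means, and all 135018 values above 0 lay within 0.02 of a whole read. The 13241 genes whose FPKM averaged 1 or more were converted to log2(FPKM + 1) and fitted in R 4.3.3 with limma 3.58.1 (trended prior, Benjamini-Hochberg adjustment), and called at an adjusted p under 0.05. Other steps used Python 3.11.15, numpy 2.4.6, pandas 2.3.3 and matplotlib 3.10.9. The fit was also run on simulated reads in which few genes changed and all shared the same spread beyond counting. The data here differ in both, so that run does not show how reliable the calls are. The 4 genes and 15 gene lists were chosen with earlier results of these data known. Named genes were the 4 genes, Cd3e, Ighm, all paralogues, up to 3 called genes of each list with the largest change, and 3 nearest profiles per gene; others were chosen after their values were seen. A few of the genes so named are not reported here. Alternatives were another pseudocount, other filters, median-of-ratios rescaling, the replicate number as a block and leaving out each library. Limma voom on the recovered reads was added after seeing the data. Counting errors cover sampling of reads only.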

Additional observations from a re-analysis of the deposited data

How the results depend on the processing

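The log2 differences of Sidt1, Tdrp, Bicdl1 and Nsg2 stayed negative under every alternative tried. After median-of-ratios rescaling they were -2.86 for Sidt1, -2.71 for Tdrp, -2.61 for Bicdl1 and -2.60 for Nsg2, while the median of all tested genes moved by 0.33. For Bicdl1 and Nsg2 the move was more than their spread between replicates (SD 0.32 each). Sidt1 and Tdrp had a wider spread (SD 0.42 and 0.49). Leaving out each library in turn gave -3.44 to -2.91 for Sidt1, -3.32 to -2.67 for Tdrp, -3.17 to -2.74 for Bicdl1 and -3.14 to -2.73 for Nsg2. The same settings gave ratios to Ighm of -0.76 to 0.17 for Sidt1, -0.64 to 0.41 for Tdrp, -0.32 to 0.34 for Bicdl1 and -0.34 to 0.21 for Nsg2, so the sign of these rests on S100A4-negative replicate 1, and for Bicdl1 and Nsg2 also on S100A4-positive replicate 1; the cause was not tested. Ratios to Cd3e kept their sign in these settings. Over all tested genes, 8253 were called (2512 higher, 5741 lower), 6881 to 8168 without a library, 8239 with voom on recovered reads, and 6904 after rescaling, of which 3618 were higher and 3286 lower. With the replicate number as a block 8857 were called. Same-numbered libraries of the groups had correlations of deviations of 0.376, 0.083 and 0.366, against -0.379 to 0.146 for libraries of different numbers. S100A4-positive replicate 2 correlated best with S100A4-negative replicate 3 (0.146). Whether the numbers pair the samples was not settled, and the main fit did not pair them. Of the genes named from the lists, Ifih1 also lost its call without a filter (limma adjusted p = 0.0604). Without a filter, 1 testis marker and 2 erythroid and platelet markers were called.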
